A study of Mus musculus with 12 samples.

Results

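The 33 genes described here encode nuclear receptors, and were taken by symbol from the rows of the count tables, where all 33 were listed among the 20775 genes counted on chow and the 22709 counted on HFCF. Their RNA was measured by bulk RNA-seq in livers of 12 male C57BL/6N mice, 3 in each of 4 groups, with 1 library per mouse. Every mouse carried floxed Elavl1 alleles (HuR F/F), Elavl1 being the gene of the RNA-binding protein HuR. By the labels, mice of 4 to 6 months were injected with an adeno-associated virus carrying Cre under the hepatocyte promoter Tbg (HuRHep-/-) or with a virus without Cre (WT), while the methods of the study describe an albumin-Cre cross. The chow groups ate normal chow, and the HFCF groups ate a diet with 40 kcal% fat, 2% cholesterol and 20 kcal% fructose for 16 weeks. Cre was driven in hepatocytes, so other liver cells of the HuRHep-/- mice keep the floxed gene, and a bulk library cannot separate them.

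Library totals ran from 30071731 to 35949203 counts. The targeted gene went against its labels: Elavl1 was higher in the livers labelled HuRHep-/-, by 0.41 ± 0.068 (SE, adjusted p = 0.0219) on the log2 scale in chow and by 0.38 ± 0.072 (SE, adjusted p = 0.0327) in HFCF. The study reports by quantitative PCR that HuR RNA was depleted in its HuRHep-/- livers, from mice its methods describe as an albumin-Cre cross. The tables do not show where in the gene the reads fell, so reads outside the deleted part would still be counted. Why the counts were higher was not tested, and each group is named here by its label. The 8 hepatocyte markers were all read in every library and summed to between 64446 and 121469 normalized CPM (counts scaled to equal library size), so the defining markers of the labelled tissue were present. On the first principal component HFCF WT replicate 2 lay nearest of the HFCF libraries to the chow ones.

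Nuclear receptors are transcription factors, many of which are switched by a small lipid-like ligand such as a fatty acid, a bile acid, an oxysterol, a retinoid or a steroid. Many bind DNA as a heterodimer with a retinoid X receptor (RXR), at copies of a short hexamer motif whose spacing and direction differ between partners. Without ligand, several of them hold corepressors on their target genes, and ligand exchanges these for coactivators. In liver they set the expression of genes for fatty acid oxidation, lipid storage, bile acid synthesis and transport, and drug metabolism.

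The sequences below are promoters of 3 members whose counts moved with the diet, shown because each holds the hexamer that these receptors bind. They come from RefSeq (GRCm38.p6) and run from 250 bases before to 50 bases after a start site, read 5′ to 3′ on the strand of the gene. Capitals mark AGGTCA and AGTTCA on either strand and, for Rarb, also the GGTTCA that precedes AGTTCA.
Rarb, chr14:16575427-16575726 (- strand): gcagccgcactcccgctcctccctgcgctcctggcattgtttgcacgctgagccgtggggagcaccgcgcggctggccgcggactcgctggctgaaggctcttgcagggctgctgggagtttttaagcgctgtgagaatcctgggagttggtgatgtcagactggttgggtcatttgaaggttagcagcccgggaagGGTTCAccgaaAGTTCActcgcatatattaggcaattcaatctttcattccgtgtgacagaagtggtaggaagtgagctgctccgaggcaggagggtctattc
Pparg, chr6:115360894-115361193 (+ strand): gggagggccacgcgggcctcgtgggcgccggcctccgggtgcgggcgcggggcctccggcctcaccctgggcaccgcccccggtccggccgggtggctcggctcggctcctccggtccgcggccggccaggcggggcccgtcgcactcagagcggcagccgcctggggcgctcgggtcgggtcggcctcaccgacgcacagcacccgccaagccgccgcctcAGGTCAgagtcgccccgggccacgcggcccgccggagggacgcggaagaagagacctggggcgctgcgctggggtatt
Pparg, chr6:115362099-115362398 (+ strand): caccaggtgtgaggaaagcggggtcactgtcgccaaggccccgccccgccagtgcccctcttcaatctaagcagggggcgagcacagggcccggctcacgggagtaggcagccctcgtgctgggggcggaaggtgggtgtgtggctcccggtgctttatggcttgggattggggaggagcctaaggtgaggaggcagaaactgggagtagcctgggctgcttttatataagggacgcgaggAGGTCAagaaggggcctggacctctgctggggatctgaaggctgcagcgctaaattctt
Nr1h4, chr10:89506609-89506908 (- strand): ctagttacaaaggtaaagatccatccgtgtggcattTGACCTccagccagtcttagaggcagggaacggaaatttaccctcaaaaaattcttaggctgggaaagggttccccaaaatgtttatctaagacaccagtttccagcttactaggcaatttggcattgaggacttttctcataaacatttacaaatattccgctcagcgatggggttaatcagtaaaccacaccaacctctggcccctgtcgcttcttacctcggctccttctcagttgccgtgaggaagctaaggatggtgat
Of the 33 genes, 31 matched 46 promoters in the table. In the Rarb promoter GGTTCA and AGTTCA lay 5 bases apart in the same direction (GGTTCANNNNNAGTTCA), starting 53 bases before the start site. That arrangement, searched on both strands, was in 2 of 32851 promoters (0.00609%). A direct repeat with 5 bases between its hexamers is the textbook element of retinoic acid receptors. AGGTCA alone was in 9 of the 46 promoters of members (19.6%) and in 16.3% of all promoters, and AGTTCA, which the Rarb repeat contains, in 7 (15.2%) and 14% of all. Both Pparg windows held AGGTCA, 28 and 9 bases before their start sites, and the Nr1h4 window held it on the opposite strand. The direct repeat with 1 base between hexamers (AGGTCANAGGTCA), which peroxisome proliferator-activated receptors bind with RXR, was in 0 of the 46 promoters and in 0.0396% of all. A match describes letters in a window and does not show binding.

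The levels of the members covered a wide range. Between genes they are compared as normalized CPM per kilobase of exon, where a normalized CPM is a count divided by the library total and a scaling factor of the library. In chow WT livers Hnf4a, the master regulator of hepatocyte genes, was highest at 109 ± 8.61 (SD, n = 3) on this scale, above 97.5% of 20031 genes. It was followed by Nr1i3 (CAR, a receptor for foreign compounds) at 76.3 ± 11.7, Rxra (the main RXR of liver) at 70.7 ± 2.29 and Nr1h4 (FXR, the bile acid receptor) at 65.1 ± 4.19, and the levels of Nr1i3, Rxra and Nr1h4 lay within about 1 SD of a neighbour. Nr0b2 (SHP, a partner that lacks a DNA-binding domain and represses other receptors) stood at 45.7 ± 9.34, Nr1h3 (LXR alpha, an oxysterol receptor) at 41.4 ± 1.52, Nr1i2 (PXR, a second sensor of foreign compounds) at 30.95 ± 4.38 and Nr2f6 (EAR2, an orphan receptor) at 29.9 ± 0.703. Nr0b2 and Nr1h3 differed from each other by less than the SD of Nr0b2, and Nr1i2 and Nr2f6 by less than that of Nr1i2. These 8 genes stood apart from the next, Nr1h2 (LXR beta) at 10.8 ± 0.401. At the other end, Vdr (the vitamin D receptor) had 0 to 6 counts per library and Hnf4g, the relative of Hnf4a, 0 to 7, and both were too low to test.

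**Figure D1:**
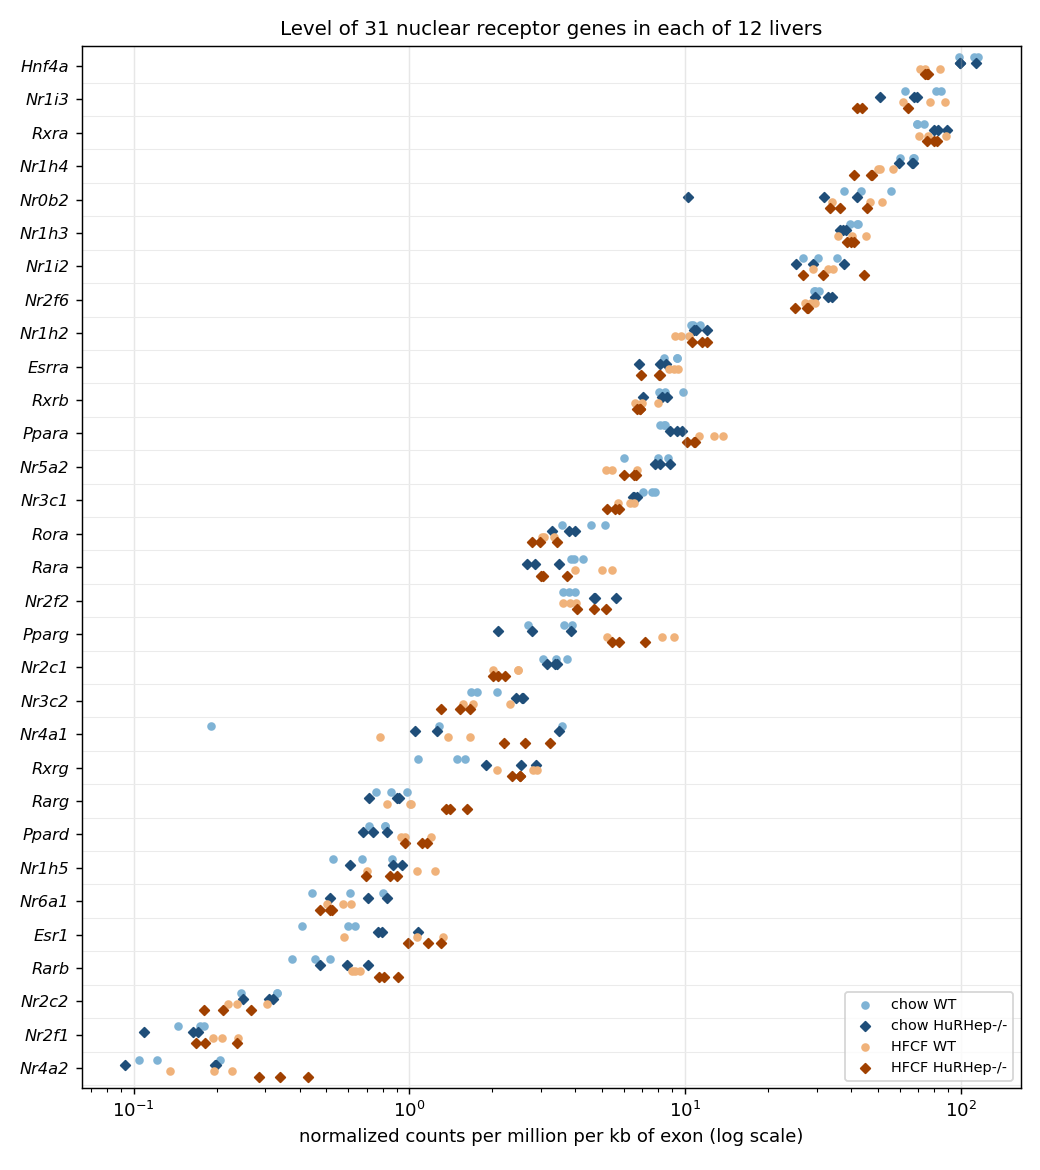
Level of each of the 31 tested nuclear receptor genes in the 12 livers, as normalized CPM per kilobase of exon on a log axis, ordered by the chow WT mean. Points are single livers, light for WT and dark for HuRHep-/-, blue for chow and orange for HFCF. The 8 genes from Hnf4a to Nr2f6 stood above the others in nearly every liver, while Nr0b2 and Nr4a1 each had a chow liver far below its group.

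The 33 genes together summed to 549.0 ± 17.7 per kilobase in chow WT, 524 ± 37.7 in chow HuRHep-/-, 512 ± 34.1 in HFCF WT and 469.98 ± 10.7 in HFCF HuRHep-/- livers. Hnf4a, Nr1i3, Rxra and Nr1h4 made up 51.9% to 61.8% of that sum in each library. Within subfamilies the leading member was the same in all 12 livers: Rxra gave 86.6% to 90.0% of the RXR level, Nr1h3 75.7% to 81.5% of the LXR level, Nr1h4 at least 97.6% of the FXR level and Nr2f6 83.8% to 88.7% of the level of Nr2f1, Nr2f2 and Nr2f6. The PPAR and retinoic acid receptor (RAR) subfamilies were more evenly divided. Pparg gave 23.4% to 29.5% of the PPAR level in chow WT and 17.2% to 28.9% in chow HuRHep-/-, against 26.0% to 40.5% in HFCF WT and 31.2% to 38.6% in HFCF HuRHep-/- livers. Rara, the leading RAR, gave 70.4% to 77.2% of the RAR level in HFCF WT and 55.6% to 61.7% in HFCF HuRHep-/- livers, which did not overlap. On chow its shares overlapped, at 72.5% to 79.0% in WT and 62.3% to 74.6% in HuRHep-/- livers.

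Of the 31 tested members, 19 passed the test (limma, with p adjusted across every gene tested, 0.05 or below) in at least 1 of 6 comparisons, beside 55.4% of 14537 genes. By diet 15 members were called, beside 46.5% of 14535 genes, and by genotype 8, beside 20.9% of 14537 genes. In WT livers 10 members were called between HFCF and chow, 5 higher and 5 lower, beside 24.1% of 14535 genes (11.3% higher, 12.8% lower). In HuRHep-/- livers 12 were called, 5 higher and 7 lower, beside 38.9% of all genes (19.7% higher, 19.1% lower). With a fold change of at least 1.5 as well, 3 and 5 members remained, beside 9.92% and 19.6% of all genes. The groups did not overlap for 13 and 15 members, where the shares over all genes were 37.6% and 54.6%. The shares of members called are thus near those of all genes, and the members did not move in 1 direction: their medians were 0.0061 and 0.016 on the log2 scale, and those of all genes 0.0095 and 0.0023. Without scaling factors the median of all genes lay at 0.19 in WT and 0.23 in HuRHep-/- livers, and the calls of members became 8 higher and 2 lower in WT and 8 and 4 in HuRHep-/- livers. Among all called genes the share that was higher then went from 46.8% to 82.4% in WT and from 50.8% to 84.4% in HuRHep-/- livers. Diet goes together with the count table, the time after injection and possibly the sequencing run, and these cannot be told apart.

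**Figure D2:**
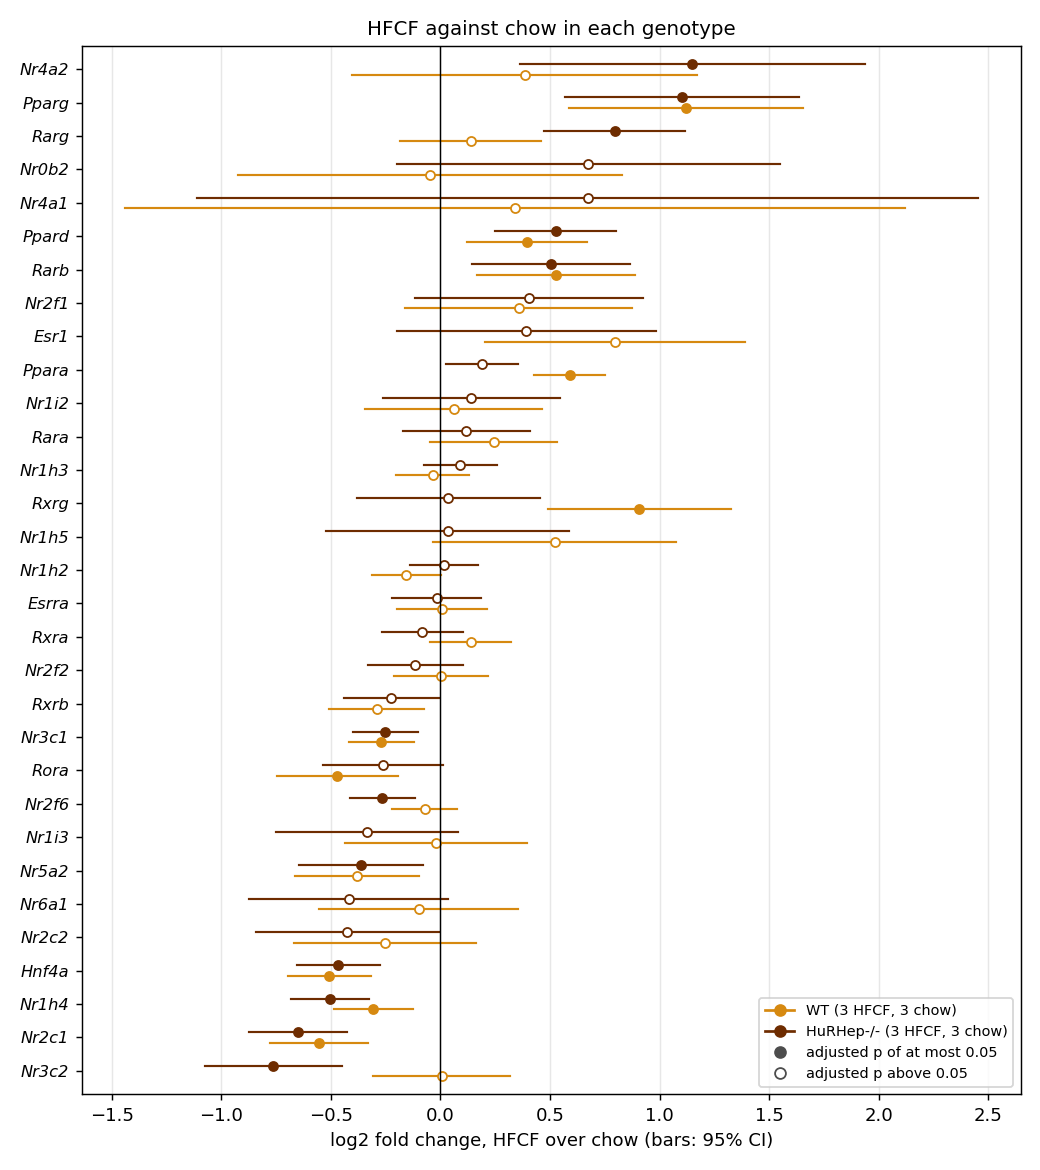
Log2 fold change between HFCF and chow for 31 nuclear receptor genes, in WT (orange) and HuRHep-/- livers (brown), 3 against 3 mice each, with 95% confidence intervals from the limma fit. Filled points passed an adjusted p of 0.05. Pparg, Ppard and Rarb were called higher and Hnf4a, Nr1h4, Nr2c1 and Nr3c1 lower in both genotypes.

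Called in both genotypes were 7 members, beside 16.5% of all genes (16.4% in the same direction in both). Both comparisons had these members in the same direction: Pparg, Ppard and Rarb were higher, and Hnf4a, Nr1h4, Nr2c1 and Nr3c1 lower. Ppara, Rxrg and Rora were called in WT livers and not in HuRHep-/- livers, and Nr2f6, Nr3c2, Nr4a2, Nr5a2 and Rarg in HuRHep-/- and not in WT livers. The test of the difference itself, the interaction of genotype and diet, called 0 of the 31 members, with 4 members at an unadjusted p of at most 0.05, and 0% of all genes (2086 of 14535 at that unadjusted p). These 4 were Nr3c2 (-0.77 ± 0.20 SE, adjusted p = 0.167), Ppara (-0.40 ± 0.11 SE, adjusted p = 0.167), Rxrg (-0.87 ± 0.27 SE, adjusted p = 0.209) and Rarg (0.66 ± 0.21 SE, adjusted p = 0.217), each the HFCF genotype difference minus that of chow. The interaction uses the same livers as the diet comparisons.

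Genotype called fewer members. Between HuRHep-/- and WT livers on chow, 1 of 31 members was called (higher), beside 4.23% of 13526 genes (2.29% higher), and on HFCF 1 (higher), beside 6.79% of 14295 genes (2.85% higher). At an unadjusted p of at most 0.05 there were 9 and 11 members, beside 3185 of 13526 and 4218 of 14295 genes. The groups did not overlap for 9 members in each diet, beside 29.5% and 36.8% of all genes. The medians of the members were -0.015 and -0.091 on the log2 scale, and those of all genes 0.0046 and -0.0016. With a fold change of at least 1.5, 0 members in chow and 1 in HFCF remained, beside 2.3% and 3.71% of all genes. Averaged over both diets, in a fit of the 12 livers, 6 members were called, 2 higher and 4 lower, beside 19.2% of 14535 genes (8.96% higher, 10.3% lower), and 0 of them reached a fold change of 1.5 (5.51% of all genes did). Without scaling factors the calls became 2 higher on chow, 4 higher on HFCF, and 8 higher and 1 lower over both diets, with the median of all genes at 0.085, 0.15 and 0.12. The share of all called genes that was higher then went from 54.2% to 73.0%, from 41.9% to 81.2% and from 46.6% to 81.3%. The comparison over both diets reuses the livers of both single-diet comparisons.

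**Figure D3:**
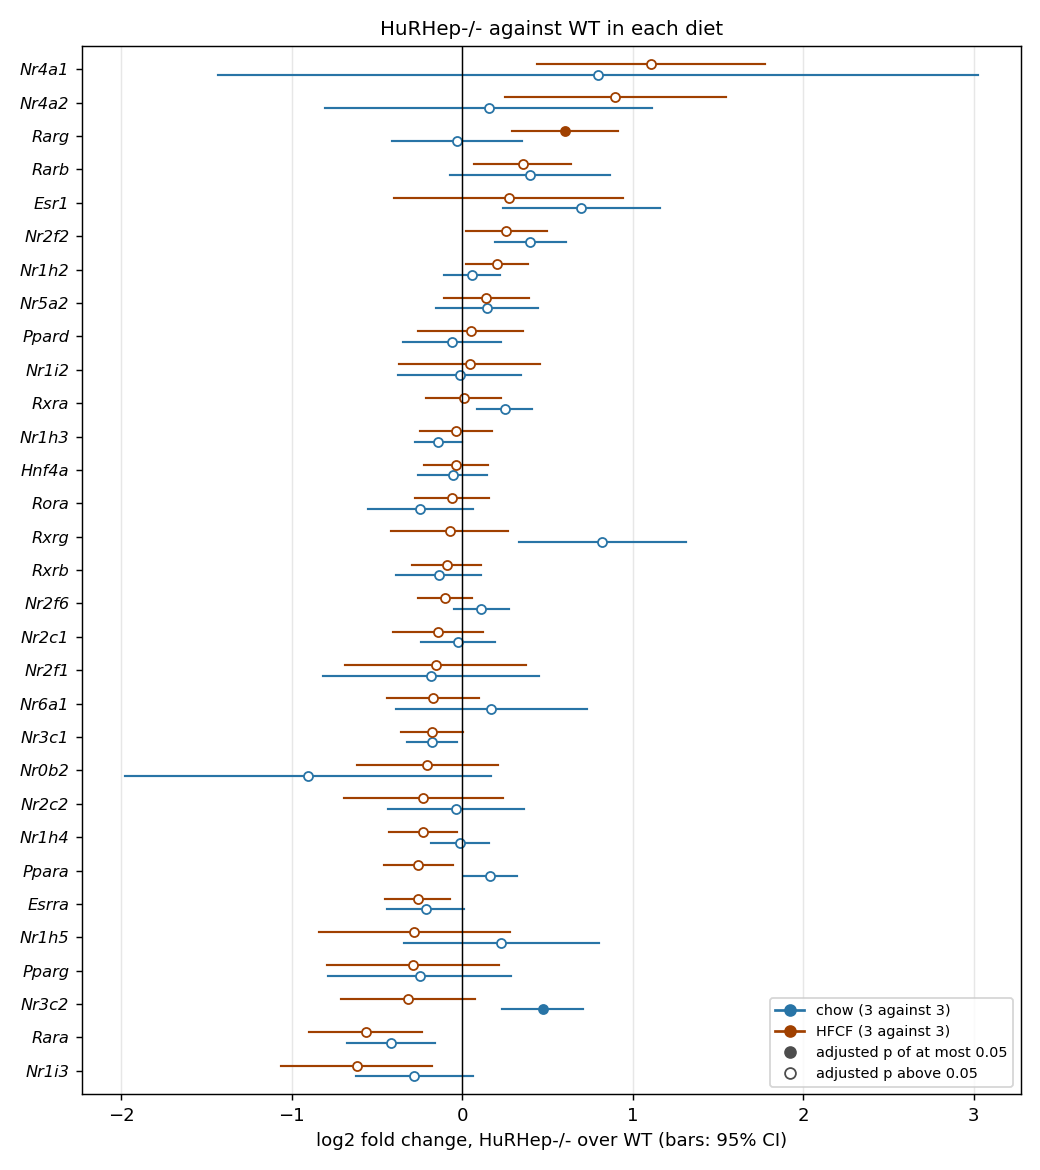
Log2 fold change between HuRHep-/- and WT livers for 31 nuclear receptor genes, on chow (blue) and on HFCF (brown), 3 against 3 mice each, with 95% confidence intervals from the limma fits. Filled points passed an adjusted p of 0.05, which were Nr3c2 on chow and Rarg on HFCF.

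Fewer cells of a type and less RNA per cell cannot be told apart in these bulk libraries, and several markers of liver cell types moved with the diet. The 8 hepatocyte markers summed to 99548 to 121469 CPM in chow WT, 82451 to 90076 in chow HuRHep-/-, 71420.5 to 78879 in HFCF WT and 64446 to 69967 in HFCF HuRHep-/- livers, so that neither the diets nor the genotypes within a diet overlapped. Alb has the highest counts of the 8 and weighs most in this sum. Gene by gene, 0 of the 8 markers were called between genotypes on chow and 1 on HFCF. On chow 2 estimates lay above 0 and 6 below, with a median of -0.18. On HFCF 3 lay above 0 and 5 below, with a median of -0.031. The separation of the sums by genotype thus did not come with calls across the list. With HFCF, 4 of the 8 were called lower in each genotype. The 8 stellate cell markers summed to 145 to 223 in chow HuRHep-/- and 408 to 503 in HFCF HuRHep-/- livers, where 8 of 8 were called higher, and in WT livers 2 of 8 were. The 6 markers of recruited macrophages were all called higher with HFCF in HuRHep-/- livers (59.7 to 106 against 144 to 192) and 3 of 6 in WT livers. Cholangiocyte markers were called higher for 5 of 5 in HuRHep-/- livers and 0 of 5 in WT livers, Kupffer cell markers for 4 and 2 of 8, lymphocyte markers for 3 and 1 of 5, and sinusoidal endothelial markers for 2 and 1 of 8. Neutrophil markers were called for 1 and 0 of 3. Of all genes, 19.7% in HuRHep-/- and 11.3% in WT livers were called higher with HFCF, and 19.1% and 12.8% lower. The sixth lymphocyte marker, Cd3e, is left out of that count because it passed the filter on low counts through the HFCF livers alone. Between genotypes over both diets, 4 of 8 Kupffer, 3 of 6 recruited macrophage, 2 of 5 cholangiocyte, 1 of 6 lymphocyte and 1 of 8 sinusoidal endothelial markers were higher, and 1 of 8 hepatocyte markers (Cyp2e1) was lower. In that comparison 8.96% of all genes were called higher and 10.3% lower. The sum of adipocyte markers was 0.23 to 1.37 in chow WT, 0.0923 to 0.217 in chow HuRHep-/-, 48.9 to 260.5 in HFCF WT and 25.6 to 44.3 in HFCF HuRHep-/- livers, mostly from Cfd, which was lower in HuRHep-/- livers over both diets (-1.94 ± 0.49 SE, adjusted p = 0.0185), while Adipoq had 0 counts in 9 libraries and at most 2 in any, and the pancreas marker Ctrb1 had at most 2 counts. The other pancreas marker listed, Cela1, reached 1534 counts and was called lower with HFCF in WT (-1.15 ± 0.31 SE, adjusted p = 0.0207) and HuRHep-/- livers (-1.64 ± 0.31 SE, adjusted p = 0.00213). The part of these cell types in the results on members was not tested.

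Among the PPARs, which bind fatty acids, Pparg moved most. Pparg (chr6:115360951-115490399, + strand, GRCm38) is the master regulator of fat cells and lipid storage. In normalized CPM, Pparg stood at 7.96, 11.5 and 10.8 in chow WT, at 11.4, 8.23 and 6.18 in chow HuRHep-/-, at 26.9, 15.4 and 24.4 in HFCF WT and at 21.0, 17.1 and 16.0 in HFCF HuRHep-/- livers. Every HFCF liver lay above every chow liver, as did the sum of adipocyte markers given above, whose part was not tested. HFCF WT replicate 2 was the lowest of the HFCF livers. The fold between HFCF and chow was 2.17 in WT (log2 1.12 ± 0.25 SE, adjusted p = 0.00791) and 2.15 in HuRHep-/- livers (1.10 ± 0.25 SE, adjusted p = 0.00512). Between genotypes the difference was -0.25 ± 0.23 (SE, adjusted p = 0.557) on chow and -0.29 ± 0.21 (SE, adjusted p = 0.399) on HFCF and passed the test on neither diet. Each of these calls of Pparg by diet held in all 6 fits that left out 1 library.

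Ppara, the receptor that turns on fatty acid oxidation during fasting, was the highest PPAR. In normalized CPM, Ppara stood at 31.2, 32.4 and 32.1 in chow WT, at 33.7, 37.5 and 35.8 in chow HuRHep-/-, at 49.0, 52.4 and 43.0 in HFCF WT and at 39.1, 41.3 and 41.6 in HFCF HuRHep-/- livers. HFCF WT livers were above chow WT livers by 1.505-fold (log2 0.59 ± 0.075 SE, adjusted p = 0.000653), and in HuRHep-/- livers the log2 fold change was 0.19 ± 0.075 (SE, adjusted p = 0.0637). The HuRHep-/- livers lay above the WT livers on chow and below them on HFCF without overlap, at 0.17 ± 0.068 (SE, adjusted p = 0.193) and -0.26 ± 0.086 (SE, adjusted p = 0.107), neither of which passed the test. The call of Ppara by diet in WT held in all 6 fits that left out 1 library. Ppard, the PPAR found in most tissues, was low. In normalized CPM, Ppard stood at 5.36, 6.12 and 6.11 in chow WT, at 5.10, 6.22 and 5.54 in chow HuRHep-/-, at 7.26, 9.01 and 6.99 in HFCF WT and at 8.68, 7.26 and 8.35 in HFCF HuRHep-/- livers. It was higher with HFCF by 0.39 ± 0.13 (SE, adjusted p = 0.0401) in WT and 0.53 ± 0.13 (SE, adjusted p = 0.00725) in HuRHep-/- livers, with no overlap in either. The call of Ppard by diet in HuRHep-/- held in all 6 fits that left out 1 library. The call of Ppard by diet in WT was lost without chow WT replicates 1, 2 and 3 or HFCF WT replicates 1 and 2 (adjusted p up to 0.138, log2 fold change 0.28 to 0.46), and with no filter beyond 1 count (adjusted p = 0.0576) and with voom weights (adjusted p = 0.0532).

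Lists of known PPAR targets were counted beside the receptors. Of 8 PPARgamma targets tested in the fit of 12 livers, Cidea and Cfd passed the filter on low counts through the HFCF livers alone, so their direction was fixed by the filter. Of the other 6, 5 were called higher with HFCF in WT and 6 in HuRHep-/- livers, and 0 lower, beside 11.3% and 19.7% of all genes called higher. Cidec, a lipid droplet protein, went from 4.57 ± 1.05 to 125 ± 79.2 CPM in WT (log2 4.46 ± 0.50 SE, adjusted p = 0.000293) and from 2.69 ± 0.809 to 107 ± 8.75 in HuRHep-/- livers (5.34 ± 0.50 SE, adjusted p = 7.21e-05). Mogat1, an enzyme of triglyceride synthesis, rose by 3.30 and 3.99, with adjusted p of 0.000407 and 7.95e-05. Cidea, another lipid droplet gene, had 2 to 6 counts per chow WT library and 237 to 4138 per HFCF WT library, and Cfd, an adipocyte gene, 7 to 40 and 1598 to 9866. Of 24 PPARalpha targets 10 were called higher and 0 lower with HFCF in WT livers, beside 11.3% of all genes called higher. Among the 10 were Pdk4 (2.13 ± 0.51 SE, adjusted p = 0.0122), Fgf21 (1.84 ± 0.35 SE, adjusted p = 0.00435), Vnn1 (1.17 ± 0.19 SE, adjusted p = 0.00226) and Acaa1b (1.15 ± 0.12 SE, adjusted p = 0.00025). In HuRHep-/- livers 7 were higher and 2 lower, beside 19.7% of all genes called higher and 19.1% lower. The median log2 fold change of the list was 0.20 in WT and 0.057 in HuRHep-/- livers, and library totals alone gave 15 higher and 0 lower in WT and 14 and 1 in HuRHep-/- livers. Between genotypes the PPARalpha targets were called in the other direction: 6 of 24 were lower in HuRHep-/- livers on chow, 4 on HFCF and 8 over both diets, and 0 were higher, beside 262 of 13526, 564 of 14295 and 1492 of 14535 genes called lower. The 4 on HFCF became 1 with upper-quartile factors and 1 with library totals alone. Acot1, an acyl-CoA thioesterase, differed by -1.39 ± 0.25 (SE, adjusted p = 0.0283) on chow and -1.36 ± 0.30 (SE, adjusted p = 0.0443) on HFCF. Ppara itself was not called between genotypes over both diets (-0.04 ± 0.053 SE, adjusted p = 0.626).

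The RXRs pair with the PPARs and many other members. Rxra, at 378 to 487 normalized CPM over the 12 livers, was not called in any comparison, with estimates from -0.22 (interaction) to 0.25 (HuRHep-/- against WT, chow). Rxrb, at 26.1 to 39.1 normalized CPM over the 12 livers, was not called either, and its estimates ran from -0.29 (HFCF against chow, WT) to 0.067 (interaction). Rxrg, known from muscle and brain, was the lowest RXR. In normalized CPM, Rxrg stood at 2.47, 3.41 and 3.66 in chow WT, at 6.64, 5.85 and 4.37 in chow HuRHep-/-, at 4.78, 6.65 and 6.45 in HFCF WT and at 5.81, 5.81 and 5.41 in HFCF HuRHep-/- livers. The chow WT livers lay below all others, which overlapped one another. In WT livers HFCF was above chow by 1.88-fold (log2 0.91 ± 0.19 SE, adjusted p = 0.00654), while in HuRHep-/- livers the log2 fold change was 0.035 ± 0.19 (SE, adjusted p = 0.905). The genotype difference was 0.82 ± 0.21 (SE, adjusted p = 0.0734) on chow and -0.072 ± 0.15 (SE, adjusted p = 0.777) on HFCF. The call of Rxrg by diet in WT held in all 6 fits that left out 1 library.

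Among the bile acid receptors, Nr1h4 was lower with HFCF. Nr1h4 (chr10:89454234-89533585, - strand, GRCm38) senses bile acids and lowers their synthesis. In normalized CPM, Nr1h4 stood at 156, 139 and 155 in chow WT, at 138, 154 and 153 in chow HuRHep-/-, at 116, 131 and 117 in HFCF WT and at 94.7, 109.9 and 109 in HFCF HuRHep-/- livers. The HFCF livers were below the chow livers of their genotype, with log2 fold changes of -0.31 ± 0.082 (SE, adjusted p = 0.0199) in WT and -0.50 ± 0.082 (SE, adjusted p = 0.000984) in HuRHep-/- livers. The call of Nr1h4 by diet in HuRHep-/- held in all 6 fits that left out 1 library. The call of Nr1h4 by diet in WT was lost without chow WT replicates 1 and 3 or HFCF WT replicates 1 and 3 (adjusted p up to 0.0741, log2 fold change -0.36 to -0.27), and with library totals alone (adjusted p = 0.165). Nr1h5, its relative (FXR beta), was not called in any comparison, at 45 to 133 counts per library. Nr0b2, the target of Nr1h4 that represses bile acid synthesis, was not called either. In normalized CPM, Nr0b2 stood at 49.0, 63.3 and 42.7 in chow WT, at 11.6, 36.1 and 47.5 in chow HuRHep-/-, at 53.1, 38.6 and 58.5 in HFCF WT and at 51.8, 41.2 and 38.0 in HFCF HuRHep-/- livers. Chow HuRHep-/- replicate 1 lay far below the other 11 livers, and the difference between genotypes on chow was -0.90 ± 0.46 (SE, adjusted p = 0.281). Nr5a2 (LRH-1), which drives bile acid synthesis genes, was called lower with HFCF in HuRHep-/- livers (-0.36 ± 0.13 SE, adjusted p = 0.0438) and stood at -0.38 ± 0.13 (SE, adjusted p = 0.0519) in WT livers. In normalized CPM, Nr5a2 stood at 51.0, 35.4 and 46.9 in chow WT, at 47.7, 51.8 and 46.1 in chow HuRHep-/-, at 30.4, 39.4 and 32.1 in HFCF WT and at 38.4, 39.3 and 35.5 in HFCF HuRHep-/- livers. The diets did not overlap in HuRHep-/- livers, and overlapped in WT livers through chow WT replicate 2. The call of Nr5a2 by diet in HuRHep-/- was lost without chow HuRHep-/- replicates 1, 2 and 3 or HFCF HuRHep-/- replicates 1, 2 and 3 (adjusted p up to 0.128, log2 fold change -0.40 to -0.31), and with upper-quartile factors (adjusted p = 0.0895), with at least 10 counts asked in every library (adjusted p = 0.0577) and with library totals alone (adjusted p = 0.363). It was also lost with the replicate number as a block.

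Of 10 tested targets of FXR, 2 were higher and 2 lower with HFCF in WT livers, and 1 higher and 5 lower in HuRHep-/- livers, beside 11.3% higher and 12.8% lower of all genes in WT and 19.7% and 19.1% in HuRHep-/- livers. Of the FXR targets higher in WT livers, Slc51b passed the filter through the HFCF livers alone. Library totals alone changed the counts to 3 and 0 in WT and 1 and 3 in HuRHep-/- livers. The list includes Cyp8b1, a gene of the bile acid synthesis that FXR lowers, so these counts give no direction of FXR activity. Abcb11, the bile salt export pump, was lower, at -0.46 ± 0.12 (SE, adjusted p = 0.0155) in WT and -0.73 ± 0.12 (SE, adjusted p = 0.000961) in HuRHep-/- livers, and Slc10a1, the bile acid uptake transporter, at -0.45 ± 0.13 (SE, adjusted p = 0.0245) and -1.02 ± 0.13 (SE, adjusted p = 0.000282). Cyp8b1, the sterol 12-hydroxylase of bile acid synthesis, was lower with HFCF in HuRHep-/- livers (-1.19 ± 0.19 SE, adjusted p = 0.000894) and lower in HuRHep-/- than in WT livers on HFCF (-1.09 ± 0.19 SE, adjusted p = 0.0291). Apoc2, an activator of lipoprotein lipase, was higher with HFCF by 1.31 ± 0.14 (SE, adjusted p = 0.000271) and 1.53 ± 0.14 (SE, adjusted p = 7.24e-05).

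The oxysterol receptors did not pass the test in any comparison. Nr1h3 stood at 90.4 to 114 normalized CPM over the 12 livers and Nr1h2 at 30.8 to 40.3 normalized CPM over the 12 livers. Nr1h3 differed between diets by -0.035 ± 0.076 (SE, adjusted p = 0.773) in WT (95% interval -0.20 to 0.13) and 0.09 ± 0.076 (SE, adjusted p = 0.373) in HuRHep-/- livers (-0.077 to 0.26), and Nr1h2 by -0.16 ± 0.072 (SE, adjusted p = 0.136) and 0.016 ± 0.072 (SE, adjusted p = 0.883). Their targets were called higher: 6 of 12 with HFCF in WT livers and 7 of 12 in HuRHep-/- livers, and 0 lower, beside 11.3% and 19.7% of all genes called higher. With library totals alone 10 of 12 were higher in each genotype. Scd1, the stearoyl-CoA desaturase, went from 5886 ± 1984 to 19537 ± 1002 CPM in WT (log2 1.78 ± 0.29 SE, adjusted p = 0.00193) and from 1932 ± 521 to 16889.7 ± 4743 in HuRHep-/- livers (3.12 ± 0.29 SE, adjusted p = 6.98e-05). Srebf1, the regulator of lipogenic genes, was higher by 1.73 ± 0.22 (SE, adjusted p = 0.000647) and 1.66 ± 0.22 (SE, adjusted p = 0.000386), and Fasn, the fatty acid synthase, by 1.35 ± 0.33 (SE, adjusted p = 0.0136) and 1.70 ± 0.33 (SE, adjusted p = 0.00251). Abcg1, a sterol exporter, was higher by 1.40 in WT and 1.58 in HuRHep-/- livers. Between genotypes, Scd1 was lower in HuRHep-/- livers on chow (-1.59 ± 0.28 SE, adjusted p = 0.026).

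**Figure D4:**
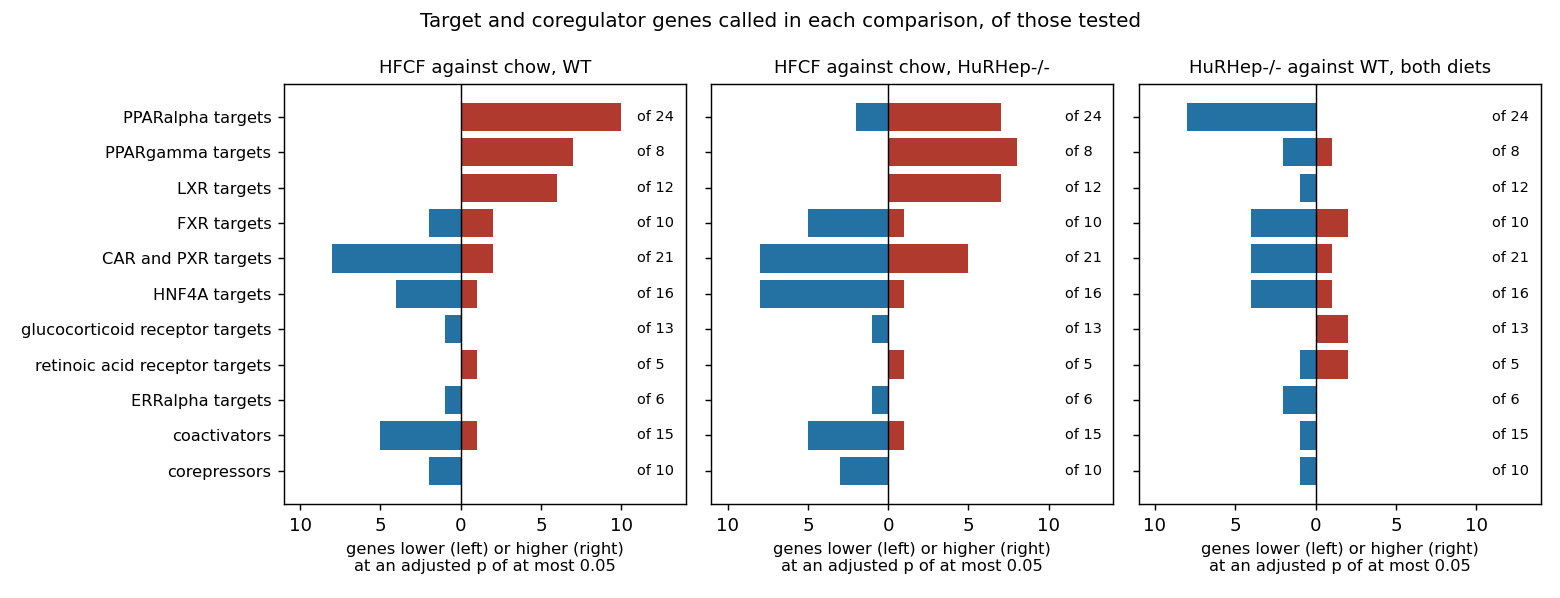
Number of genes in each list of receptor targets, coactivators and corepressors that were called higher (red, to the right) or lower (blue, to the left), of those tested (numbers beside the bars), with HFCF in WT livers, with HFCF in HuRHep-/- livers, and in HuRHep-/- against WT livers over both diets. PPARgamma and LXR targets were called higher with HFCF and 0 lower, the PPARgamma bars counting Cidea and Cfd, which passed the filter through the HFCF livers alone, while 8 of 24 PPARalpha targets were lower in HuRHep-/- livers and 0 higher.

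Of the receptors for foreign compounds, Nr1i3 was lower in HuRHep-/- livers over both diets and Nr1i2 was not called. Nr1i3 turns on cytochrome P450 genes of drug metabolism. In normalized CPM, Nr1i3 stood at 373, 278 and 359 in chow WT, at 225, 306 and 299 in chow HuRHep-/-, at 272, 388 and 341 in HFCF WT and at 193, 186 and 284 in HFCF HuRHep-/- livers. WT and HuRHep-/- livers overlapped on each diet, and the difference over both diets was -0.44 ± 0.13 (SE, adjusted p = 0.0383). The call of Nr1i3 over both diets was lost without chow WT replicates 1 and 3, chow HuRHep-/- replicates 1 and 2, HFCF WT replicates 2 and 3 or HFCF HuRHep-/- replicates 1 and 2 (adjusted p up to 0.0855, log2 fold change -0.55 to -0.38), and with library totals alone (adjusted p = 0.0685). Of the exons of Nr1i3, 74.9% overlap Tomm40l on the opposite strand. The library kit keeps strand and strand-aware alignment is stated for the chow data. Nr1i2, at 64.4 to 113 normalized CPM over the 12 livers, had estimates between -0.015 (genotype, chow) and 0.14 (diet, HuRHep-/-). Of 21 tested CAR and PXR targets, 2 were higher and 8 lower with HFCF in WT livers, and 5 and 8 in HuRHep-/- livers, beside 12.8% and 19.1% of all genes called lower. The 5 include Cyp2b13, which passed the filter through the HFCF livers alone. Library totals alone changed these counts to 3 and 6, and 6 and 6. Ces2a, a carboxylesterase, fell from 537 ± 62.8 to 221 ± 46.8 CPM in WT (log2 -1.30 ± 0.13 SE, adjusted p = 0.000197) and from 392 ± 22.5 to 146 ± 7.33 in HuRHep-/- livers (-1.42 ± 0.13 SE, adjusted p = 7.25e-05). Cyp2b10, the classic CAR target, was lower, at -3.90 ± 0.92 (SE, adjusted p = 0.0115) and -2.95 ± 0.92 (SE, adjusted p = 0.0255), whereas its relative Cyp2b9 had 4 to 33 counts per chow and 887 to 1671 per HFCF library of HuRHep-/- mice. Cyp2b10 and Cyp2b9, like Acot1, Acaa1b, Ces2a and Serpina1c, have close copies in the genome, so how the counting shared reads among copies is uncertain. Ugt1a1, which conjugates bilirubin, was lower in HuRHep-/- livers on both diets (-0.71 ± 0.074 SE, adjusted p = 0.00746 and -0.66 ± 0.092 SE, adjusted p = 0.0189).

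Hnf4a (chr2:163506808-163572910, + strand, GRCm38), which maintains the hepatocyte programme, was lower with HFCF in both genotypes. In normalized CPM, Hnf4a stood at 556, 477 and 539 in chow WT, at 479, 478 and 549 in chow HuRHep-/-, at 342, 407 and 358 in HFCF WT and at 366, 358 and 364 in HFCF HuRHep-/- livers. All 6 HFCF livers lay below all 6 chow livers, and the genotypes overlapped within each diet. The fold between chow and HFCF was 1.42 in WT (log2 -0.51 ± 0.087 SE, adjusted p = 0.00256) and 1.38 in HuRHep-/- livers (-0.47 ± 0.087 SE, adjusted p = 0.00199), and the genotype difference was -0.055 ± 0.087 (SE, adjusted p = 0.743) on chow and -0.037 ± 0.079 (SE, adjusted p = 0.791) on HFCF. The sum of hepatocyte markers given above was also lower with HFCF. Each of these calls of Hnf4a by diet held in all 6 fits that left out 1 library. Of 16 HNF4A targets, 1 was higher and 4 lower with HFCF in WT livers, and 1 and 8 in HuRHep-/- livers, beside 12.8% and 19.1% of all genes called lower. Library totals alone changed these counts to 3 and 4, and 4 and 5. F7, a clotting factor, was lower, at -0.62 ± 0.15 (SE, adjusted p = 0.0134) and -0.74 ± 0.15 (SE, adjusted p = 0.00345), and Serpina1c, a protease inhibitor, at -0.75 ± 0.23 (SE, adjusted p = 0.0361) and -0.80 ± 0.23 (SE, adjusted p = 0.0182). The target that was higher was Apoa4, an apolipoprotein, which went from 92.9 ± 6.87 to 2454 ± 644 CPM in WT livers (log2 4.69 ± 0.24 SE, adjusted p = 3.8e-06).

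Among the orphan receptors, Nr2c1 (TR2, a repressor) was lower with HFCF in both genotypes. In normalized CPM, Nr2c1 stood at 17.2, 14.1 and 15.7 in chow WT, at 14.5, 15.6 and 15.8 in chow HuRHep-/-, at 11.4, 11.4 and 9.24 in HFCF WT and at 10.3, 9.28 and 9.67 in HFCF HuRHep-/- livers. No HFCF liver reached the lowest chow liver. The log2 fold change was -0.56 ± 0.10 (SE, adjusted p = 0.00352) in WT and -0.65 ± 0.10 (SE, adjusted p = 0.000847) in HuRHep-/- livers. Each of these calls of Nr2c1 by diet held in all 6 fits that left out 1 library. Nr2c2 (TR4), its relative, was at 2.69 to 4.95 normalized CPM over the 12 livers. Its diet differences were -0.25 ± 0.19 (SE, adjusted p = 0.356) and -0.43 ± 0.19 (SE, adjusted p = 0.0973), and 30.7% of its exons overlap Mrps25 on the opposite strand. Nr2f2 (COUP-TFII), an orphan receptor of veins and mesenchyme, was higher in HuRHep-/- livers. In normalized CPM, Nr2f2 stood at 34.5, 31.1 and 32.7 in chow WT, at 40.4, 48.5 and 40.5 in chow HuRHep-/-, at 32.9, 34.6 and 31.04 in HFCF WT and at 40.1, 44.6 and 35.0 in HFCF HuRHep-/- livers. The genotypes did not overlap on chow. On HFCF they touched, HuRHep-/- replicate 3 lying beside WT replicate 2, above it with the scaling of the 12 libraries and not with that of the 6 HFCF libraries. The difference was 0.40 ± 0.09 (SE, adjusted p = 0.0511) on chow, 0.26 ± 0.10 (SE, adjusted p = 0.142) on HFCF and 0.33 ± 0.07 (SE, adjusted p = 0.00736) over both diets. The call of Nr2f2 over both diets held in all 12 fits that left out 1 library. Nr2f6 was lower with HFCF in HuRHep-/- livers. In normalized CPM, Nr2f6 stood at 88.2, 87.7 and 91.6 in chow WT, at 98.3, 102 and 88.6 in chow HuRHep-/-, at 81.3, 88.0 and 85.2 in HFCF WT and at 83.1, 82.4 and 74.4 in HFCF HuRHep-/- livers. All 3 HFCF livers of HuRHep-/- mice lay below their 3 chow livers, and the WT livers overlapped. The log2 fold change was -0.27 ± 0.067 (SE, adjusted p = 0.00983) there and -0.073 ± 0.067 (SE, adjusted p = 0.461) in WT livers. The call of Nr2f6 by diet in HuRHep-/- held in all 6 fits that left out 1 library, but was lost with upper-quartile factors (adjusted p = 0.0505) and with library totals alone (adjusted p = 0.722). Of the Nr2f6 exons 54.4% overlap Ocel1 on the opposite strand. Nr2f1 (COUP-TFI), at 18 to 46 counts per library, and Nr6a1 (GCNF, an embryonic repressor), at 144 to 311, were not called.

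The steroid receptors among the members bind hormones of the adrenal gland and estrogens. Nr3c1, the glucocorticoid receptor, was lower with HFCF and in HuRHep-/- livers, by small amounts. In normalized CPM, Nr3c1 stood at 59.6, 58.1 and 54.0 in chow WT, at 51.5, 50.3 and 49.6 in chow HuRHep-/-, at 49.98, 48.7 and 43.8 in HFCF WT and at 44.3, 43.0 and 40.0 in HFCF HuRHep-/- livers. The diets did not overlap in either genotype, and the genotypes overlapped on HFCF but not on chow. In WT livers HFCF differed from chow by -0.27 ± 0.067 (SE, adjusted p = 0.0146) and in HuRHep-/- livers by -0.25 ± 0.067 (SE, adjusted p = 0.0128), and the genotypes by -0.17 ± 0.048 (SE, adjusted p = 0.0274) over both diets. The call of Nr3c1 over both diets was lost without chow WT replicate 1, chow HuRHep-/- replicate 2, HFCF WT replicate 1 or HFCF HuRHep-/- replicate 3 (adjusted p up to 0.0644, log2 fold change -0.20 to -0.15), and with library totals alone (adjusted p = 0.406). The call of Nr3c1 by diet in WT was lost without chow WT replicate 1 or HFCF WT replicate 3 (adjusted p up to 0.0606, log2 fold change -0.31 to -0.21), and with library totals alone (adjusted p = 0.383). The call of Nr3c1 by diet in HuRHep-/- was lost without HFCF HuRHep-/- replicate 3 (adjusted p up to 0.0522, log2 fold change -0.28 to -0.21), and with upper-quartile factors (adjusted p = 0.066) and with library totals alone (adjusted p = 0.827). Of 13 glucocorticoid receptor targets, the metallothioneins Mt2 and Mt1 were higher in HuRHep-/- livers on chow (3.05 ± 0.42 SE, adjusted p = 0.0135 and 2.44 ± 0.34 SE, adjusted p = 0.0131), and 0 were lower, beside 2.29% of all genes called higher, whereas on HFCF 0 were higher and 1 lower, Dusp1, a phosphatase (-0.56 ± 0.11 SE, adjusted p = 0.0335), a call lost with library totals alone. With HFCF, Klf9, a transcription factor that glucocorticoids induce, was the 1 target called in each genotype, and it was lower (-0.76 ± 0.14 SE, adjusted p = 0.0033 and -0.75 ± 0.14 SE, adjusted p = 0.00182).

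Nr3c2, the mineralocorticoid receptor, was the member called between genotypes on chow. In normalized CPM, Nr3c2 stood at 10.8, 13.4 and 11.4 in chow WT, at 16.5, 16.8 and 15.8 in chow HuRHep-/-, at 11.03, 15.05 and 10.1 in HFCF WT and at 9.90, 10.7 and 8.46 in HFCF HuRHep-/- livers. Chow HuRHep-/- livers were above all other livers, by 0.47 ± 0.10 (SE, adjusted p = 0.0464) over chow WT. On HFCF the genotype difference was -0.32 ± 0.17 (SE, adjusted p = 0.243), with overlap. With HFCF, HuRHep-/- livers were 1.70-fold lower (log2 -0.76 ± 0.14 SE, adjusted p = 0.00212), and WT livers stood at 0.0061 ± 0.14 (SE, adjusted p = 0.982). The call of Nr3c2 in chow was lost without chow WT replicates 1 and 3 or chow HuRHep-/- replicates 1, 2 and 3 (adjusted p up to 0.172, log2 fold change 0.40 to 0.57), and with upper-quartile factors (adjusted p = 0.0524), with no filter beyond 1 count (adjusted p = 0.0522) and in a fit of all 12 libraries (adjusted p = 0.0759). It was also lost with the replicate number as a block. The call of Nr3c2 by diet in HuRHep-/- held in all 6 fits that left out 1 library. Esr1, the estrogen receptor, was not called. In normalized CPM, Esr1 stood at 5.60, 8.69 and 8.17 in chow WT, at 14.7, 10.9 and 10.5 in chow HuRHep-/-, at 7.89, 18.1 and 14.6 in HFCF WT and at 15.9, 13.5 and 17.7 in HFCF HuRHep-/- livers. Chow WT livers were below all chow HuRHep-/- livers, at 0.70 ± 0.20 (SE, adjusted p = 0.0913), and the diet difference in WT livers was 0.80 ± 0.27 (SE, adjusted p = 0.0521).

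The retinoic acid receptors differed by genotype, and in opposite directions. Rara was lower in HuRHep-/- livers. In normalized CPM, Rara stood at 18.6, 17.2 and 16.8 in chow WT, at 15.2, 11.7 and 12.5 in chow HuRHep-/-, at 23.7, 21.8 and 17.4 in HFCF WT and at 16.3, 13.4 and 13.1 in HFCF HuRHep-/- livers. On each diet every HuRHep-/- liver lay below every WT liver. The difference was -0.42 ± 0.11 (SE, adjusted p = 0.0796) on chow, -0.57 ± 0.14 (SE, adjusted p = 0.0574) on HFCF and -0.49 ± 0.094 (SE, adjusted p = 0.00513) over both diets. The call of Rara over both diets held in all 12 fits that left out 1 library. Rarb (chr14:16430839-16819156, - strand, GRCm38) is itself a known target of retinoic acid, and its promoter with the direct repeat is printed above. In normalized CPM, Rarb stood at 1.97, 2.71 and 2.39 in chow WT, at 2.49, 3.71 and 3.14 in chow HuRHep-/-, at 3.27, 3.36 and 3.49 in HFCF WT and at 4.79, 4.25 and 4.09 in HFCF HuRHep-/- livers. In each genotype every HFCF liver lay above every chow liver. It was higher with HFCF by 0.53 ± 0.16 (SE, adjusted p = 0.0376) in WT and 0.50 ± 0.16 (SE, adjusted p = 0.0309) in HuRHep-/- livers, and higher in HuRHep-/- livers by 0.38 ± 0.12 (SE, adjusted p = 0.0398) over both diets. The call of Rarb by diet in WT was lost without chow WT replicates 1 and 3 or HFCF WT replicates 1, 2 and 3 (adjusted p up to 0.141, log2 fold change 0.41 to 0.63), and with no filter beyond 1 count (adjusted p = 0.0559) and with voom weights (adjusted p = 0.0547). The call of Rarb by diet in HuRHep-/- was lost without chow HuRHep-/- replicates 1 and 3 or HFCF HuRHep-/- replicates 1, 2 and 3 (adjusted p up to 0.118, log2 fold change 0.35 to 0.64), and with no filter beyond 1 count (adjusted p = 0.0514). The call of Rarb over both diets was lost without chow WT replicates 1 and 3, chow HuRHep-/- replicates 2 and 3, HFCF WT replicates 1, 2 and 3 or HFCF HuRHep-/- replicates 1, 2 and 3 (adjusted p up to 0.0996, log2 fold change 0.31 to 0.45), and with no filter beyond 1 count (adjusted p = 0.0609). Of its exons 34.1% overlap Top2b on the opposite strand.

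Rarg was highest in the HFCF HuRHep-/- livers. In normalized CPM, Rarg stood at 3.23, 4.18 and 3.66 in chow WT, at 3.04, 3.90 and 3.85 in chow HuRHep-/-, at 4.30, 3.54 and 4.32 in HFCF WT and at 5.98, 5.81 and 6.89 in HFCF HuRHep-/- livers. These 3 livers lay above all 9 others. The difference from HFCF WT was 1.52-fold (log2 0.60 ± 0.13 SE, adjusted p = 0.0444), that from chow HuRHep-/- 1.73-fold (0.79 ± 0.15 SE, adjusted p = 0.00193), and the genotype difference on chow -0.032 ± 0.16 (SE, adjusted p = 0.929). The call of Rarg in HFCF was lost without HFCF WT replicates 1 and 2 or HFCF HuRHep-/- replicates 1, 2 and 3 (adjusted p up to 0.143, log2 fold change 0.51 to 0.66), and with no filter beyond 1 count (adjusted p = 0.0518). The call of Rarg by diet in HuRHep-/- held in all 6 fits that left out 1 library. Of 5 tested retinoic acid receptor targets, 2 were higher and 1 lower in HuRHep-/- livers over both diets, beside 8.96% of all genes called higher and 10.3% lower. Tgm2, a transglutaminase, was among those higher (0.65 ± 0.13 SE, adjusted p = 0.00703), and Cyp26b1, which degrades retinoic acid, was lower (-1.60 ± 0.42 SE, adjusted p = 0.021). Stellate cells store retinoids, and their marker sum, given above, was highest in the same HFCF HuRHep-/- livers, where it overlapped with HFCF WT. Its part in these values was not tested.

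**Figure D5:**
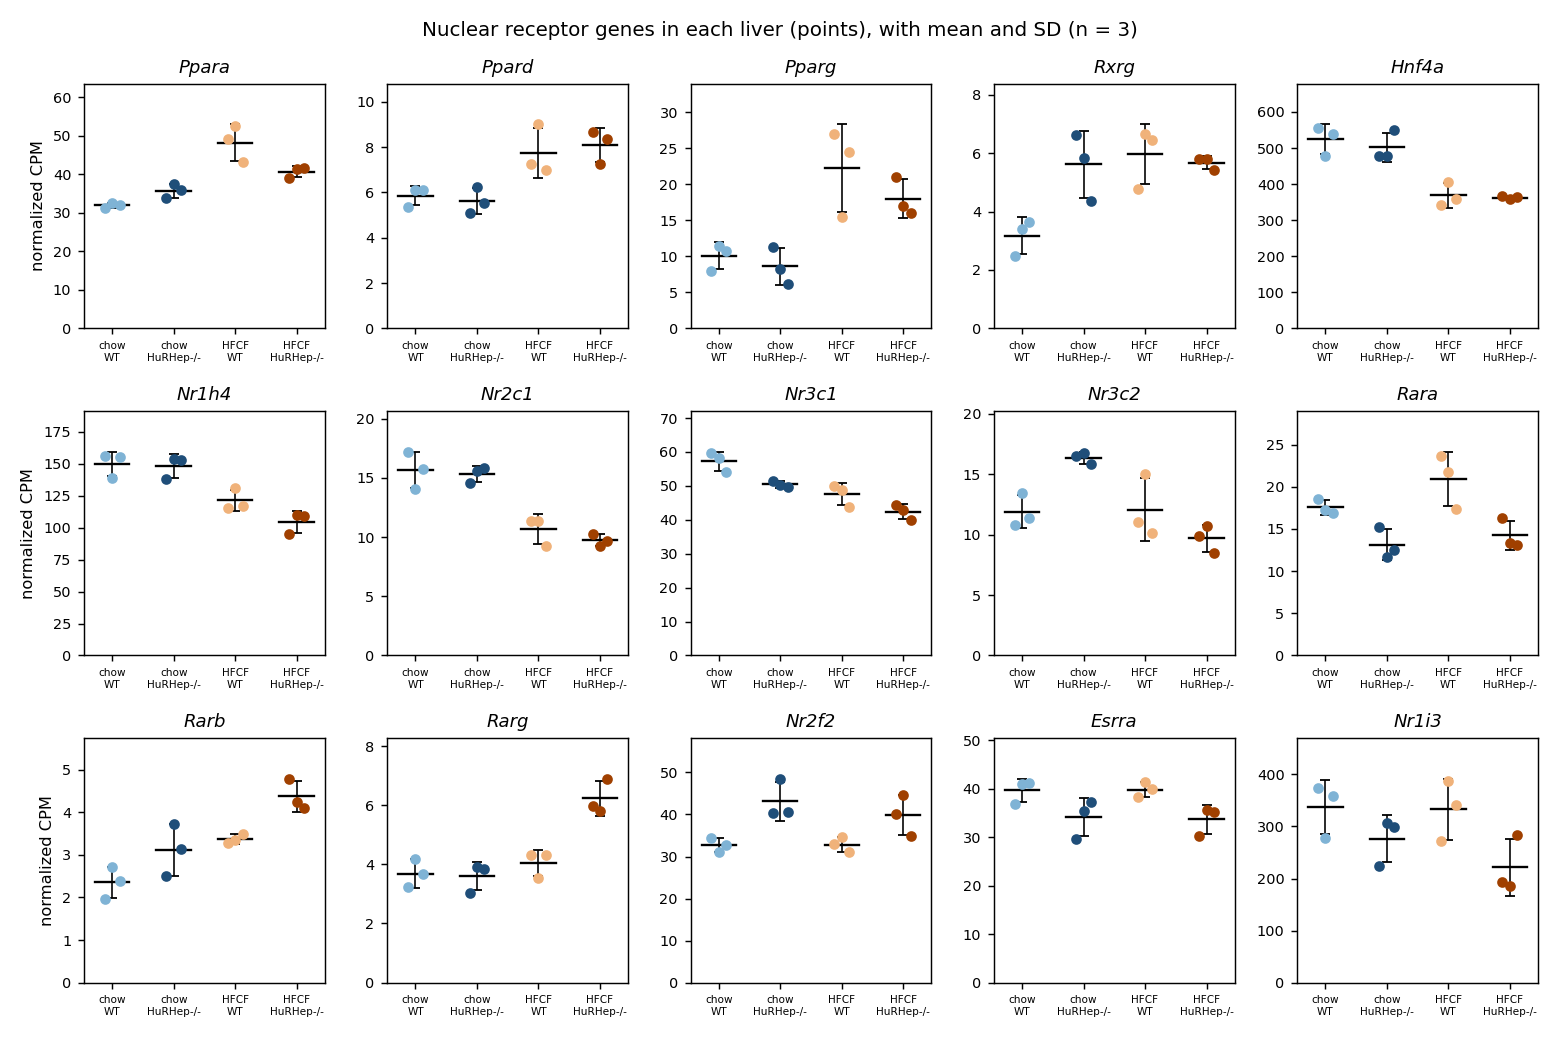
Normalized CPM of 15 nuclear receptor genes in each of the 12 livers (points), with the mean (line) and SD (bars) of 3 mice per group. Pparg lay higher and Hnf4a lower in every HFCF liver than in any chow liver, Nr2f2 higher in every HuRHep-/- than in any WT liver on chow, and Rarg highest in the 3 HFCF HuRHep-/- livers.

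The remaining members regulate energy metabolism, daily rhythms and early responses. Esrra (ERR alpha), which drives mitochondrial genes, was lower in HuRHep-/- livers. In normalized CPM, Esrra stood at 36.9, 41.0 and 41.2 in chow WT, at 29.7, 35.4 and 37.4 in chow HuRHep-/-, at 38.3, 41.4 and 39.9 in HFCF WT and at 30.3, 35.6 and 35.2 in HFCF HuRHep-/- livers. The genotypes did not overlap on HFCF, and the difference over both diets was -0.23 ± 0.066 (SE, adjusted p = 0.0299). The call of Esrra over both diets was lost without chow WT replicates 2 and 3, chow HuRHep-/- replicate 1, HFCF WT replicate 2 or HFCF HuRHep-/- replicate 1 (adjusted p up to 0.0652, log2 fold change -0.27 to -0.20), and with library totals alone (adjusted p = 0.159). Of 6 tested ERRalpha targets 2 were lower over both diets, beside 10.3% of all genes called lower. These were Cox5b (-0.43 ± 0.062 SE, adjusted p = 0.00104) and Ndufa4 (-0.24 ± 0.066 SE, adjusted p = 0.0291), both parts of the respiratory chain, and 1 was higher and 1 lower with library totals alone. Rora, a receptor of the clock and of lipid genes, was lower with HFCF in WT livers. In normalized CPM, Rora stood at 59.6, 46.7 and 66.8 in chow WT, at 42.9, 49.4 and 52.0 in chow HuRHep-/-, at 43.8, 40.3 and 39.6 in HFCF WT and at 36.4, 39.0 and 45.0 in HFCF HuRHep-/- livers. The diets did not overlap in WT livers and overlapped in HuRHep-/- livers. The log2 fold change was -0.47 ± 0.13 (SE, adjusted p = 0.02) in WT and -0.26 ± 0.13 (SE, adjusted p = 0.12) in HuRHep-/- livers. The call of Rora by diet in WT was lost without chow WT replicates 1 and 3 or HFCF WT replicate 3 (adjusted p up to 0.0786, log2 fold change -0.61 to -0.36), and with library totals alone (adjusted p = 0.0841).

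Nr4a1 and Nr4a2 are early response genes whose RNA changes within a short time of a stimulus. Nr4a2 was highest in HFCF HuRHep-/- livers, at low counts of 13 to 70 per library. In normalized CPM, Nr4a2 stood at 0.494, 0.836 and 0.425 in chow WT, at 0.377, 0.805 and 0.8 in chow HuRHep-/-, at 0.792, 0.549 and 0.921 in HFCF WT and at 1.75, 1.37 and 1.16 in HFCF HuRHep-/- livers. These 3 livers lay above the other 9. They differed from chow HuRHep-/- livers by 1.15 ± 0.36 (SE, adjusted p = 0.0258) and from HFCF WT livers by 0.90 ± 0.28 (SE, adjusted p = 0.089). The call of Nr4a2 by diet in HuRHep-/- was lost without chow HuRHep-/- replicate 1 or HFCF HuRHep-/- replicates 1 and 2 (adjusted p up to 0.096, log2 fold change 0.79 to 1.33). Nr4a1 was not called. In normalized CPM, Nr4a1 stood at 12.5, 0.669 and 4.51 in chow WT, at 3.68, 4.43 and 12.2 in chow HuRHep-/-, at 5.83, 2.75 and 4.86 in HFCF WT and at 11.3, 9.25 and 7.73 in HFCF HuRHep-/- livers. Its chow livers spread over more than the range of the HFCF livers, with chow WT replicate 2 the lowest. On HFCF all 3 HuRHep-/- livers lay above the WT livers, at 1.11 ± 0.28 (SE, adjusted p = 0.0611). The time of day of collection is not in the labels, and its part was not tested.

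Coactivators and corepressors are the proteins that receptors recruit to their targets. Of 15 coactivator genes, 1 was higher and 5 lower with HFCF in WT livers, and 1 and 5 in HuRHep-/- livers, beside 11.3% higher and 12.8% lower of all genes in WT and 19.7% and 19.1% in HuRHep-/- livers, with medians of -0.19 and -0.24 on the log2 scale. Kat2b, an acetyltransferase, was lower in WT (-0.39 ± 0.072 SE, adjusted p = 0.00368) and HuRHep-/- livers (-0.62 ± 0.072 SE, adjusted p = 0.000215), and Ppargc1a (PGC-1 alpha) in HuRHep-/- livers (-0.91 ± 0.28 SE, adjusted p = 0.0241). Of 10 corepressor genes 2 and 3 were lower and 0 higher, beside those same shares, among them Ncor1 (-0.28 ± 0.066 SE, adjusted p = 0.012 and -0.34 ± 0.066 SE, adjusted p = 0.00259) and Sin3a (-0.44 ± 0.11 SE, adjusted p = 0.0141 and -0.34 ± 0.11 SE, adjusted p = 0.0279). With library totals alone the coactivators called became 1 higher and 0 lower in WT and 2 and 2 in HuRHep-/- livers, and the corepressors 3 higher and 0 lower in WT and 4 and 0 in HuRHep-/- livers, so that the balance of both lists depends on the scaling. Of the 2 tested targets of the vitamin D receptor, S100g, a calcium-binding protein, had 0 to 1 counts per chow WT and 6 to 19 per HFCF WT library, and both targets passed the filter through the HFCF livers alone, so no direction is read from them. Between genotypes over both diets, where 10.3% of all genes were called lower, 1 of 15 coactivators (Kat2b, -0.25 ± 0.051 SE, adjusted p = 0.00707) and 1 of 10 corepressors (Hdac3, -0.18 ± 0.046 SE, adjusted p = 0.0189) were lower and 0 higher, and with library totals alone 4 coactivators and 2 corepressors were higher and 0 lower.

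Of the 16 nuclear receptor genes that are not among the 33, 10 were tested in the fit of 12 livers, and 2 of these passed the filter through the HFCF livers alone. Thrb, a thyroid hormone receptor, was lower in HuRHep-/- livers over both diets (-0.21 ± 0.063 SE, adjusted p = 0.0384). Esrrg was higher with HFCF in WT livers (1.44 ± 0.30 SE, adjusted p = 0.00597), at 22 to 33 counts per chow and 72 to 87 per HFCF library. Nr4a3, the relative of Nr4a1 and Nr4a2, had 1 to 2 counts per chow and 9 to 15 per HFCF library of HuRHep-/- mice, and is 1 of the 2 that passed through HFCF.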

How the data were processed

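RNA from 12 mouse livers was sequenced, and the authors deposited counts per gene in 2 tables, 1 for each diet. According to the sources, reads were aligned in CLC Genomics Workbench to GRCm38.p6 with strand-aware local alignment, stated for the chow data. The deposited counts are whole numbers, those of 1000 and more being written as text with comma separators, which were removed here. Totals of 30071731 to 35949203 counts per library limit the precision of low genes only, and counting error is covered by the spread between mice. Each mouse is 1 sample, with group and replicate number from its labels, and 0 columns belonged to other samples.

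Counts were scaled by TMM factors written in R 4.3.3 and tested by limma 3.58.1 (lmFit, eBayes with trend). The values tested were log2 CPM, with 0.5 added to each count before scaling. Benjamini-Hochberg adjustment ran over all genes tested. The genotypes within a diet were fitted on the 6 libraries of that diet, and all else on the 12 libraries over genes in both tables. Genes needed the equivalent of 10 counts in at least 3 libraries and 15 in total. A call is an adjusted p of at most 0.05. Levels per kilobase use merged exon lengths of the GENCODE annotation (GRCm38). The fits were tested on simulated data.

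The 33 genes, the lists of targets, coregulators and markers, and the rule for naming genes were chosen with earlier results of these data known. All 33 are described, with values in every library for those called. From each other list at most 4 called genes with the largest change per comparison could be named. Alternatives were other scaling factors, filters, a pseudocount of 2, voom weights, a replicate block, a fit on all 12 libraries and leaving out each library. Library totals alone, and the filter, pseudocount and weight settings for single members, were chosen after seeing the data. Lists of genes got no set test. Some genes of the lists are not reported here.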

Additional observations from a re-analysis of the deposited data

Results flagged for a closer look

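Ppara, the fatty acid oxidation receptor, was flagged because its genotype difference pointed in opposite directions on the 2 diets. On chow all 3 HuRHep-/- livers lay above all 3 WT livers (0.17 ± 0.068 SE on the log2 scale), and on HFCF all 3 lay below (-0.26 ± 0.086 SE). The difference between these differences was -0.40, and the interaction of genotype and diet in limma gave it an adjusted p of 0.167, so that it did not pass the test. Diet and count table cannot be told apart here.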

How the results depend on the processing

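Of 216 estimates of called members with 1 library left out, 0 changed direction and 145 were still called, and of 242 under other settings 0 changed direction and 217 were still called. Of 268 calls of genes in the lists, 0 changed the sign of the estimate under another scaling, although which genes passed the test did change. On chow, where 1 member was called, 0 were called with a fold change of 1.5, upper-quartile factors or no filter, and 2 with 10 counts in every library, the fit on all 12 libraries or library totals alone. On HFCF, where 1 was called, 0 were called with no filter, 2 in the fit on all 12 libraries and 4 with library totals alone. With a fold change of 1.5 the calls fell to 0 over both diets, to 3 of 10 by diet in WT and to 5 of 12 by diet in HuRHep-/- livers. Leaving out 1 library gave 0 to 1 calls on chow, 0 to 3 on HFCF, 3 to 6 over both diets, 5 to 11 by diet in WT, 9 to 12 by diet in HuRHep-/- livers and 0 for the interaction. Among all genes, leaving out 1 library took the calls on chow from 572 to between 9 (without HuRHep-/- replicate 2) and 535, those on HFCF from 971 to between 28 (without HuRHep-/- replicate 1) and 1280, and those of the interaction from 0 to at most 41 (without HFCF WT replicate 3). Over both diets the calls went from 2795 to between 1849 and 2946. By diet they went from 3508 to between 1979 and 3956 in WT and from 5649 to between 4037 and 4792 in HuRHep-/- livers. The cause of these changes was not tested.

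Replicate numbers were not taken to pair the mice, since nothing in the labels ties them and correlations between same-numbered libraries ran from -0.14 to 0.19. As a hint from the data, 2 of 6 chow and 6 of 6 HFCF libraries correlated best with their own number within the diet. With the replicate number as a block, 0 members were called on chow and 3 on HFCF, and 341 and 1341 of all genes, against 572 and 971 without it. Under the block the adjusted p was 0.0601 for Nr3c2 on chow and 0.0621 for Nr5a2 by diet in HuRHep-/- livers. Counts per member limit Vdr and Hnf4g, which were too low to test.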
